A study of Mus musculus with 8 samples.

Results

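The surrogate light chain and Cd79 genes are 6 of the 21900 protein-coding genes in the GRCm38.p6 annotation: Igll1, Vpreb1, Vpreb2, Vpreb3, Cd79a and Cd79b. They were chosen by name, as parts of the pre-B cell receptor and their relatives, and their peaks were looked up in 4 lists. A peak belonged to a gene when its summit, the base with the strongest signal, lay in the gene's body. It also belonged to the gene when it lay outside all protein-coding genes with that gene's bound as the nearest, within 100 kb. This gave 4 of 312 EBF1 peaks in DMSO, 0 of 5 EBF1 peaks after dTAG-13, 3 of 234 Brg1 peaks in DMSO and 10 of 5206 Brg1 peaks after dTAG-13.

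The lists come from chromatin immunoprecipitation with sequencing (ChIP-seq) in a mouse culture model of early B cells, pro-B cells made to grow by A-MuLV (Abelson murine leukaemia virus). In all groups, exogenous modified EBF1 replaced the endogenous factor. EBF1, a transcription factor of early B cells, was precipitated from EBF1-dTAG_C cells, and Brg1, the motor subunit of BAF chromatin remodellers, from EBF1-dTAG_N cells. Each line was given dTAG-13, a small molecule that sends the dTAG-bearing protein to degradation, at 0.5 µM for 6 h, or DMSO. The controls are labelled 0 h in the titles and 6 h of DMSO in the treatment field. Each group had 1 library, and differences between conditions therefore have no replicate check. The labels do not say whether a line is 1 clone, and EBF1 itself was not mapped in the line used for Brg1.

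These genes encode the parts of the receptor that tests the first immunoglobulin heavy chain a B-cell precursor makes. Igll1 (lambda 5) and a Vpreb protein together form the surrogate light chain, which pairs with the heavy chain before any conventional light chain exists. Cd79a (Ig-alpha, from the gene also called mb-1) and Cd79b (Ig-beta, from the gene also called B29) are the signalling chains that carry the receptor to the surface and pass its signal inward. Vpreb3 is a relative of the Vpreb proteins found with heavy chains inside the cell. EBF1 is known as an activator of several of these genes in early B cells.

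In GRCm38.p6, Igll1 (gene ID 16136) spans chr16:16860671-16863985 and Vpreb1 (22362) chr16:16868401-16869255, both on the minus strand and next to each other. Vpreb2 (22363) lies farther along the same chromosome, at chr16:17979445-17981274 on the plus strand, and its listed start site, 17980565, is inside these bounds. Vpreb3 (22364) spans chr10:75943024-75949657 on the plus strand, with the listed start site at 75948300. Cd79a (12518) spans chr7:24897497-24901858 on the plus strand, and Cd79b (15985) chr11:106311341-106314562, with no strand in the tables used here.

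The sequences below are those just upstream of the listed start sites of the 3 members that had a Brg1 or EBF1 peak over that stretch. They come from RefSeq promoter sequences of GRCm38.p6, 250 bases each, which matched 5 of the 6 genes; Cd79b was not matched. Capitals mark E-boxes (CANNTG, the class of site read by E2A and related factors), the core of the EBF1 palindrome (CCCNNGGG) and a wider palindrome (TCCC and GGGA held 3 bases apart), searched on both strands. The core and the wider palindrome share no base in these stretches, and the E-boxes overlap neither.
Igll1, chr16:16863986-16864235, minus strand: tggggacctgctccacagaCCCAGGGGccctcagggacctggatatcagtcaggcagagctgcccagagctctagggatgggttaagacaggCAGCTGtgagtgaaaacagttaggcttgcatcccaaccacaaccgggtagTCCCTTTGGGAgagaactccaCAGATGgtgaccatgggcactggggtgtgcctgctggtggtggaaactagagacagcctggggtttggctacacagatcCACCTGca
Vpreb1, chr16:16869256-16869505, minus strand: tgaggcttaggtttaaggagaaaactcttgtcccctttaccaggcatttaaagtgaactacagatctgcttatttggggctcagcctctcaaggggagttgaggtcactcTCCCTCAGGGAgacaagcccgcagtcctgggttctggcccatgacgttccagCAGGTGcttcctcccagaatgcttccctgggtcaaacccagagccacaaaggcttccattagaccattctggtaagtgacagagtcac
Cd79a, chr7:24897247-24897496, plus strand: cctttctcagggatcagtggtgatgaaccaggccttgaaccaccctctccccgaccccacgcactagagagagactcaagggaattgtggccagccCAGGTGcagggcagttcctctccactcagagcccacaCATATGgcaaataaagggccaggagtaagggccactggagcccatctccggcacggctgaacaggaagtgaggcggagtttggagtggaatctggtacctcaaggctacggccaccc
The full EBF1 palindrome (TCCC and GGGA held 2 bases apart, which contains the core) was in 0 of the 5 matched promoters, and in 0.779% of all 32851 promoter windows of this length. Its core was in the Igll1 window alone, from 231 to 224 bases before the start site, against 11.8% of all windows. The wider palindrome, a pattern chosen after these sequences had been read, was in Igll1 (TCCCTTTGGGA, 108 to 98 bases before the start) and in Vpreb1 (TCCCTCAGGGA, 140 to 130 bases before it). It was in 0.673% of all windows. E-boxes were in all 5 windows, as in 66.2% of all windows, and the ETS core GGAA was in all 5, as in 93.4%. The search counted exact matches only, so a site that departs from these patterns was not counted. These matches describe letters in a window and not bound sites.

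EBF1 was found at 4 of the 6 genes in DMSO and at 0 of 6 after dTAG-13. Across all protein-coding genes, 1.27% had an assigned EBF1 peak in DMSO and 0.0228% after dTAG-13. The 4 genes were Igll1, Cd79b, Vpreb2 and Vpreb3, with 1 peak each, and 3 of the 4 summits lay within 1 kb of the gene, against 15.1% of all EBF1 summits in DMSO. Vpreb1 and Cd79a had no EBF1 peak. For each peak the authors' fold enrichment, which is pileup plus 1 over the local background plus 1, is given with the −log10 q of the peak caller and the number of fragments stacked at the summit.

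Igll1 had the strongest of these sites. Its EBF1 peak in DMSO ran over chr16:16863978-16864365 with the summit 262 bp upstream of the start site, and rested on 45 fragments (95% Poisson interval 32.8 to 60.2) over a background of 2.11 fragments per base. The fold enrichment was 12.8 and the −log10 q 28.5, the 20th of 312 in its list. This peak covered all 250 bases of the Igll1 sequence printed above, its summit lying just beyond the far end of that stretch.

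At Cd79b the EBF1 peak in DMSO lay over chr11:106314497-106314696, across the right-hand bound of the gene, with the summit 60 bp outside it. It held 30 fragments (20.2 to 42.8), a fold enrichment of 8.08 and a −log10 q of 12.6, rank 92 of 312. The Vpreb3 peak, chr10:75949736-75949990, held 21 fragments (13 to 32.1) with a fold enrichment of 6.61 and a −log10 q of 7.53. It lay 182 bp past the far end of Vpreb3 and 1539 bp downstream of the listed start site, and so at the 3′ side of the gene. The Vpreb2 peak was the only distal one, at chr16:17969536-17969796, with its summit 9761 bp before the left bound of the gene and 10881 bp upstream of the listed start site. It held 23 fragments (14.6 to 34.5), a fold enrichment of 6.95 and a −log10 q of 8.05. The next protein-coding gene, Slc25a1, was 41465 bp from that summit. Igll1 and Cd79b thus stood above the list's median −log10 q of 8.21, and Vpreb2 and Vpreb3 just below it.

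After dTAG-13 the 4 EBF1 sites were absent from the list, which kept 5 of the 312 DMSO peaks (1.6%). The weakest peak listed after dTAG-13 had a −log10 p of 14.2. In DMSO, Igll1 (34.6) and Cd79b (18) stood above that value, as did 143 of all 312 peaks, whereas Vpreb2 (13.2) and Vpreb3 (12.6) stood below it. The lowest local backgrounds of the EBF1 lists were 1.77 fragments per base in DMSO and 1.65 after dTAG-13. By −log10 p, the Vpreb2 and Vpreb3 peaks in DMSO thus stood below every peak of the dTAG-13 list. By −log10 q, Vpreb3 (7.53) stood just below the lowest of that list (7.57) and Vpreb2 (8.05) above it. The EBF1 list in DMSO went down to a −log10 q of 1.46. The weakest peak after dTAG-13 therefore need not mark a limit of detection. No EBF1 peak after dTAG-13 lay within 100 kb of any of the 6 genes.

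**Figure D1:**
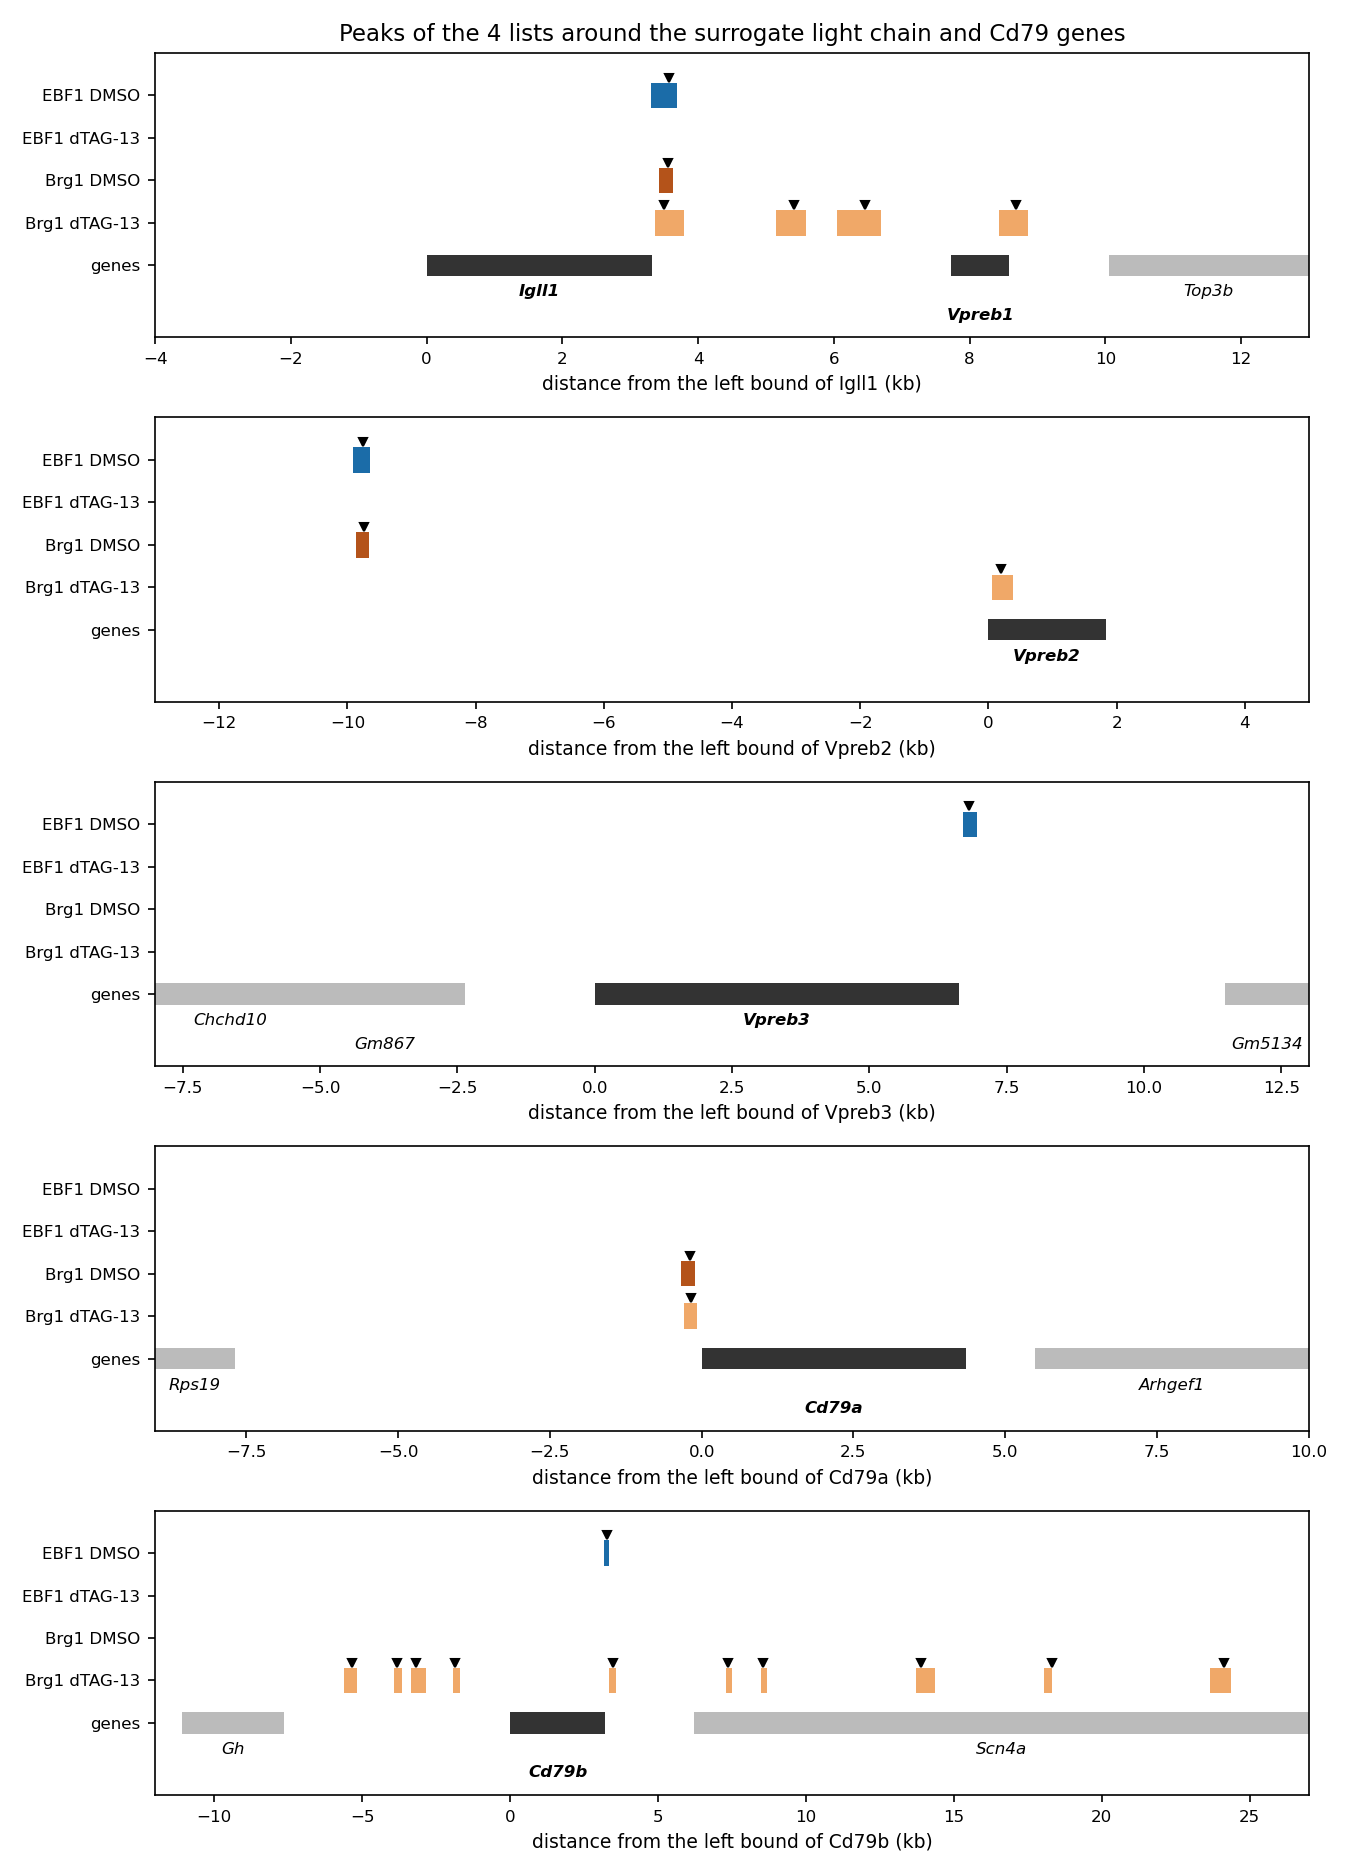
Peaks of the 4 lists around the 6 genes, as boxes with a triangle at each summit, by distance in kb from the left bound of the gene named under each panel; dark boxes are the 6 genes and grey boxes their neighbours. EBF1 in DMSO and Brg1 in DMSO coincide at Igll1 and 9.7 kb before Vpreb2, the EBF1 dTAG-13 row is empty throughout, and the Brg1 dTAG-13 row around Cd79b holds 10 peaks, 5 of them inside Scn4a.

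Brg1 was found at 3 of the 6 genes in DMSO, Igll1, Vpreb2 and Cd79a, against 0.813% of all protein-coding genes. After dTAG-13 it was found at 5 of the 6, all but Vpreb3, against 12% of all protein-coding genes. Summits within 1 kb of a gene's bound were 2 of the 3 member peaks in DMSO (Igll1 and Cd79a), against 4.27% of the list, and 5 of the 10 after dTAG-13, against 18.6%. The dTAG-13 Brg1 library was 3.54 times as deep as the DMSO one by the lowest local background of the lists, 2.15 against 0.607 fragments per base. The longer list and the larger number of members after dTAG-13 therefore cannot be told apart from depth by counts of peaks alone.

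At Igll1 the Brg1 peak in DMSO, chr16:16864089-16864304, had its summit 14 bp from the EBF1 summit. All 216 bases of it lay under the EBF1 peak. It held 16 fragments (9.15 to 26) over a background of 1.31, with a fold enrichment of 7.35 and a −log10 q of 7.69, rank 76 of 234. After dTAG-13 Brg1 was again found there, over chr16:16864038-16864460, with 15 fragments (8.4 to 24.7) over a background of 2.15. The fold enrichment was then 5.09 and the −log10 q 4.93, with the summit 71 bp nearer the gene, 177 bp upstream of the start site. Igll1 was thus the only member with EBF1 in DMSO and Brg1 in both conditions at the same site.

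A second Brg1 peak assigned to Igll1 appeared in the dTAG-13 list alone. It lay over chr16:16865819-16866266, 2094 bp upstream of the start site, with 18 fragments and a fold enrichment of 5.41. Vpreb1, whose body begins 4416 bp beyond Igll1 on the same strand, had Brg1 peaks only after dTAG-13. The nearer one, chr16:16869098-16869527, had its summit 97 bp upstream of the Vpreb1 start site and covered all 250 bases of the printed Vpreb1 sequence. It was the highest of the 10 member peaks in that list by −log10 q (9.74, rank 437 of 5206), with 23 fragments (14.6 to 34.5) and a fold enrichment of 6.44. The other, chr16:16866718-16867372, lay between the genes, 1276 bp past the 3′ end of Vpreb1, with 19 fragments and a fold enrichment of 4.34. The Igll1 and Vpreb1 locus thus held 1 Brg1 peak in DMSO and 4 after dTAG-13.

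At Vpreb2 the Brg1 peaks of the conditions lay at different places. In DMSO the peak was at chr16:17969585-17969781, 22 bp from the distal EBF1 summit and wholly under the EBF1 peak, with 11 fragments (5.49 to 19.7), a fold enrichment of 7.01 and a −log10 q of 5.54. After dTAG-13 no Brg1 peak was listed there, and the nearest summit was 9941 bp away, inside Vpreb2. That peak, chr16:17979501-17979836, held 19 fragments (11.4 to 29.7) with a fold enrichment of 5.04 and a −log10 q of 6. Its summit was 202 bp inside the left bound and 918 bp upstream of the listed start site. The gene table used here gives no exons, so it was not placed in an exon or intron.

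Vpreb1 and Vpreb2 are near copies of each other, and the stretch under the strongest Vpreb1 summit is shared. The lines give the 106 bases before the Vpreb1 start site and their counterpart at Vpreb2, from the same RefSeq windows, with the 2 differing bases in capitals.
Vpreb1, chr16:16869256-16869361, minus strand: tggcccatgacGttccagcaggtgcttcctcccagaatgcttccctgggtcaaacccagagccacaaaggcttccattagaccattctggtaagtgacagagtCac
Vpreb2, chr16:17980315-17980420, plus strand: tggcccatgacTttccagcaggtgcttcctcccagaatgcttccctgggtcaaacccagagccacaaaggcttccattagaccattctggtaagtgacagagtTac
Over the whole overlap of the RefSeq windows, 153 of 156 bases were identical (98.1%). The Vpreb1 summit corresponds to position 17980324 of Vpreb2, where no peak was listed, and the Vpreb2 body peak has its summit 677 bp from it. The treatment of reads that match both genes is not given in the sources used here. The assignment of fragments between these copies is uncertain.

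Cd79a had a listed Brg1 peak at its promoter in both conditions and a listed EBF1 peak in neither. The EBF1 list in DMSO held 312 peaks from 1 library of another cell line. Absence from it therefore does not show that EBF1 was absent from Cd79a. The DMSO peak, chr7:24897164-24897383, had its summit 195 bp upstream of the start site, with 12 fragments (6.2 to 21) over a background of 0.984, a fold enrichment of 6.55 and a −log10 q of 5.13. After dTAG-13 the peak, chr7:24897198-24897422, had its summit 18 bp away at 177 bp upstream, with 25 fragments (16.2 to 36.9) over 4.12, a fold enrichment of 5.08 and a −log10 q of 7.88. The peaks shared 186 bp, and both lay largely over the Cd79a sequence printed above, 137 bases of it in DMSO and 176 after dTAG-13. The nearest EBF1 summit in DMSO was 334628 bp from the DMSO summit.

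Cd79b had no Brg1 peak in DMSO and 4 after dTAG-13, the most of any member. Genes with at least 4 Brg1 peaks in that list made up 1.26% of all protein-coding genes, and genes with at least 2, among them Igll1 and Vpreb1, 4.47%. The peak nearest to Cd79b, chr11:106314684-106314929, had its summit 269 bp beyond the right-hand bound, with 16 fragments (9.15 to 26) and a fold enrichment of 4.54. It met the EBF1 peak over 13 bp only, and the summits were 209 bp apart. The other 3 lay 1872, 3178 and 3817 bp beyond the left-hand bound, with 13, 20 and 18 fragments and fold enrichments of 3.57, 4.83 and 5.1. The weakest of them, at 1872 bp, stood at percentile 7.38 of the list by −log10 q, and the other 9 member peaks between percentiles 46.7 and 91.6.

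**Figure D2:**
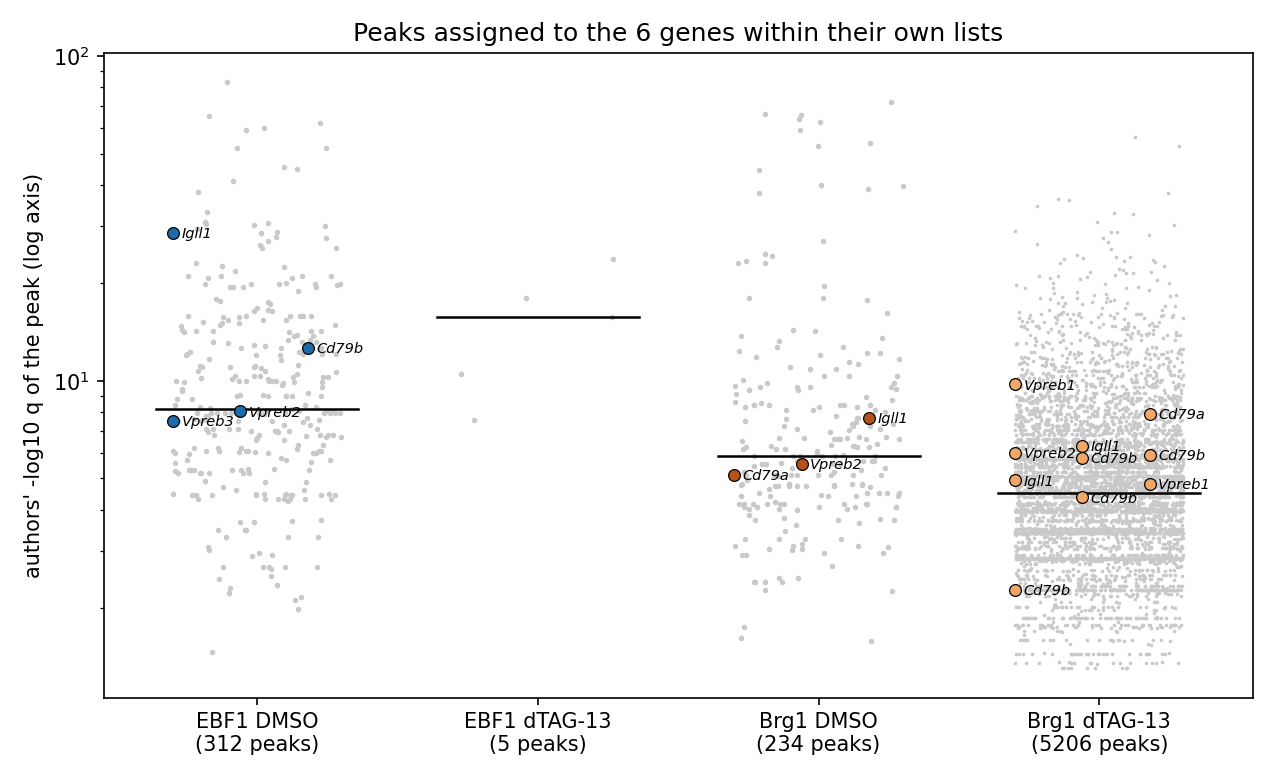
The authors' −log10 q of every peak (grey points, log axis) in each of the 4 lists, with the list's median as a bar and the peaks assigned to the 6 genes as labelled coloured points. Igll1 leads the EBF1 DMSO members at 28.5, the Brg1 DMSO members sit between 5.13 and 7.69, and 8 of the 10 Brg1 dTAG-13 members lie above the median of their list.

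Vpreb3 had no Brg1 peak in either condition. The Brg1 summit nearest to its EBF1 summit was 358152 bp away after dTAG-13. Taking the EBF1 sites of DMSO by their Brg1 peaks, the Igll1 and Vpreb2 sites overlapped a Brg1 peak in DMSO, 2 of 4 against 14.1% of all EBF1 sites. The Igll1 and Cd79b sites overlapped one after dTAG-13, also 2 of 4, against 17.9%. Read from Brg1, 2 of the 3 member peaks in DMSO and 2 of the 10 after dTAG-13 met an EBF1 site, against 18.8% and 1.09% of those lists. Of the 3 Brg1 member peaks in DMSO, those of Igll1 and Cd79a were found again after dTAG-13 and that of Vpreb2 was not, against 54.3% found again in the whole list. In the other direction, 2 of the 10 were in the DMSO list, against 2.42%.

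Brg1 fragments at the member summits were also scaled to the depth of the other list. Scaled to the DMSO depth, the 10 summits of the dTAG-13 list would hold 3.68 to 7.07 fragments, and the lowest summit of the DMSO list held 8. This held for the 8 summits without a DMSO peak and also for the 2 with one, Igll1 (4.24 scaled, 16 found in DMSO) and Cd79a (7.07 scaled, 12 found). Scaled the other way, the 11 fragments at the distal Vpreb2 site in DMSO would become 38.9, whereas summits in the dTAG-13 list went down to 10. The part of depth in which Brg1 peaks were listed was not tested.

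For the peaks found in both conditions, fragments after dTAG-13 can be set against DMSO fragments scaled by depth. At Igll1, 15 fragments stood against a scaled 56.6, a ratio of 0.265 (exact 95% interval 0.122 to 0.573). At Cd79a, 25 stood against 42.4, a ratio of 0.589 (0.285 to 1.29). Over the 125 shared DMSO peaks whose local background was at most 5 times the lowest, the median ratio was 0.628 and the middle part of the distribution, quartile to quartile, ran from 0.465 to 0.848. Of these 125 peaks, 2 had a lower ratio than Igll1 and 55 a lower ratio than Cd79a. Among the 17 of them at EBF1 sites the median was 0.437, and among the other 108 it was 0.643. DMSO peaks had to pass the caller in a shallow library and the intervals cover counting error only, so these ratios describe the libraries and not the treatment.

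**Figure D3:**
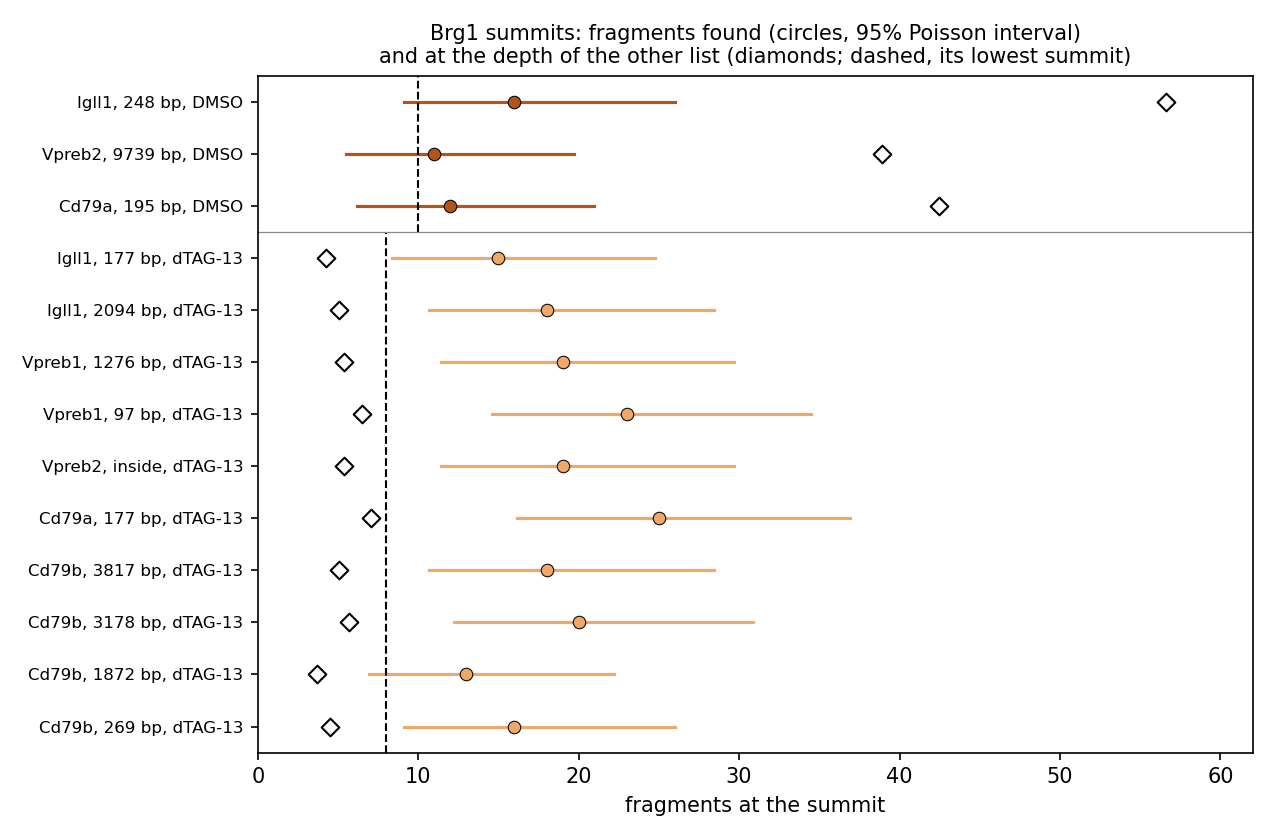
Fragments at the 13 Brg1 summits assigned to the 6 genes (circles, with 95% Poisson intervals; 3 from DMSO above the line, 10 from dTAG-13 below), the same fragments scaled to the depth of the other list (diamonds) and the lowest summit of that other list (dashed). All 3 DMSO diamonds lie above 10 fragments and all 10 dTAG-13 diamonds lie below 8.

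The other genes of the pre-B receptor pathway were taken from a list of 30 factors, kinases, adaptors and surface proteins. EBF1 was found in DMSO at 9 of the 30, after dTAG-13 at 0, and Brg1 at 10 in DMSO and 25 after dTAG-13. Over all protein-coding genes the shares were 1.27% and 0.0228% for EBF1, and 0.813% and 12% for Brg1. The Brg1 library after dTAG-13 was 3.54 times as deep as that in DMSO. The 9 genes with EBF1 each had a Brg1 peak in at least 1 condition, where 83.3% of the list had one after dTAG-13: Ebf1, Pax5, Foxo1, Cd72, Plcg2, Pik3ap1, Pik3cd, Bank1 and Inpp5d. Of their 11 EBF1 peaks, 3 overlapped Brg1 in DMSO and 3 after dTAG-13, against 14.1% and 17.9% of all EBF1 sites. At Foxo1, a transcription factor of early B cells, an EBF1 peak of 25 fragments 93840 bp from the gene lay over Brg1 in both conditions, with 13 fragments in DMSO and 29 after dTAG-13. At Pik3ap1 (BCAP, an adaptor that links the receptor to PI3-kinase), the EBF1 peak lay 342 bp from the gene with 24 fragments, over a DMSO Brg1 peak of 16 fragments. At Bank1, another adaptor of receptor signalling, an EBF1 peak of 27 fragments inside the gene lay over a DMSO Brg1 peak of 10 fragments. Neither the Pik3ap1 nor the Bank1 site overlapped a Brg1 peak after dTAG-13. The reverse was seen at Plcg2 and Inpp5d. There an EBF1 site overlapped Brg1 only after dTAG-13, at peaks of 17 and 27 fragments.

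As a check of the label, 2 of 5 defining B-lineage genes had EBF1 in DMSO (Pax5 and Ebf1), and 4 of 5 had Brg1 after dTAG-13. Of 10 T-cell, 10 myeloid and 8 erythroid genes, 0 had EBF1. Over all protein-coding genes 1.27% had EBF1 in DMSO, so a count of 0 in lists this short does not set these genes apart. Brg1 after dTAG-13 was at 3 T-cell genes (Cd3d, Lck and Zap70) and 1 myeloid gene (Ly6c2), against 12% of all protein-coding genes. Ly6c2 was the only one of these 4 with Brg1 in DMSO, at a peak 21389 bp from the gene with 214 fragments and a fold enrichment of 2.56. The median fold enrichment of that list was 6.5. After dTAG-13 the Ly6c2 peak held 375 fragments with a fold enrichment of 1.46. So many fragments at so low a fold enrichment mean a high local background, and not a strong site. A peak is not a level of expression, and expression was not measured here.

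**Figure D4:**
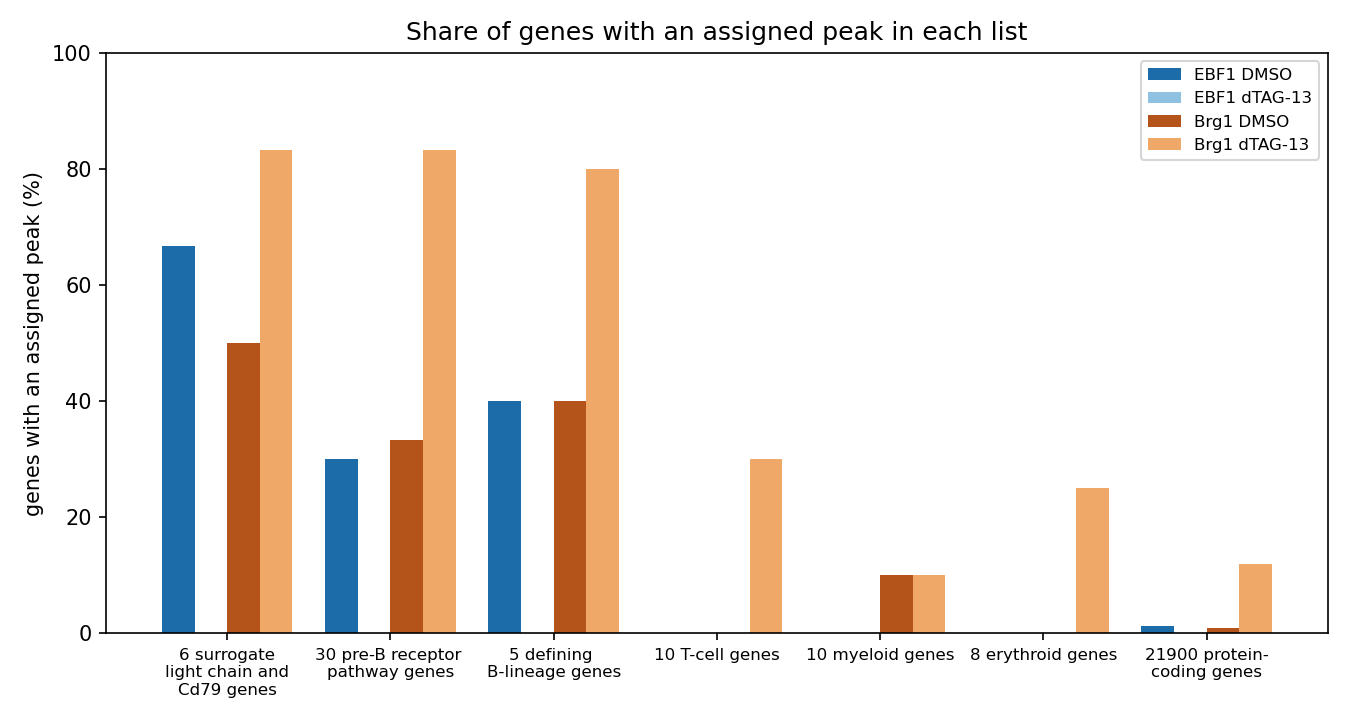
Percent of genes with at least 1 assigned peak in each of the 4 lists, for the 6 genes, the pre-B receptor pathway, genes that mark the B lineage and other lineages, and all protein-coding genes. EBF1 in DMSO reaches 4 of the 6 genes and 9 of 30 pathway genes against 1.27% of all genes, and Brg1 after dTAG-13 reaches 12% of all genes. EBF1 after dTAG-13 shows no visible bar, at 0 in each gene list and 0.0228% of all genes.

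Likeness to other genes was judged by presence or absence over the 4 lists. The pattern of Igll1 and Vpreb2 (EBF1 in DMSO, Brg1 in both conditions) was shared by 34 other genes, of which Cux1, Myl10, Med13l, Col26a1 and Fgd2 had the highest EBF1 −log10 q. The pattern of Cd79b (EBF1 in DMSO, Brg1 after dTAG-13 only) was shared by 118, led by Tbc1d16, Sh2b3, Actb, Adap1 and Arap1. That of Vpreb3 (EBF1 in DMSO only) was shared by 106, among them Mib1, Slc25a26, Sh3gl3 and Irgc1. The pattern of Cd79a (Brg1 in both conditions) was shared by 114 and that of Vpreb1 (Brg1 after dTAG-13 only) by 2351 genes.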

How the data were processed

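Peak lists of 4 immunoprecipitations were analysed, and the 4 inputs were not used here. MACS2 2.2.7.1, Bowtie2 2.3.5.1, deepTools 3.3.2 and SAMtools 1.10 appear in the submitters' processing notes, as do the builds GRCm38 and mm10. The setting used for each peak call is not given in the sources used here. The deposited fold enrichment is a linear ratio, and the authors' p-value and q-value are deposited as −log10 values. The authors' score equals 10 times the −log10 q without its decimals. Another kind of value in the deposited lists is the offset of each summit from its peak's start.

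Total reads per library are not given in the files. Fragments and local background at each summit were recovered from fold enrichment and p (Python 3.11.15, SciPy 1.17.1), to within 0.02 in −log10 p for 100% of peaks, with the immunoprecipitation scaled by 0.863 and 0.818 in the EBF1 lists and unscaled for Brg1. EBF1 backgrounds are on that scale. The median summit held 26 (DMSO) and 35 (dTAG-13) fragments for EBF1, and 13 and 18 for Brg1, which limits precision. The steps were checked on simulated peaks.

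Overlap meant at least 1 bp. No test between conditions was made, with 1 library per group. Peaks called in each library separately were compared under other thresholds, overlap rules and distances. All 6 genes and each of their peaks are named, with pathway genes where EBF1 and Brg1 both had a peak, the 5 most similar genes by EBF1 q (except an item that is not reported here), and the T-cell and myeloid genes with a Brg1 peak, named after their values were seen. The palindrome with 3 bases between, the shared-peak ratios and the background limit of 5 times the lowest were also chosen after seeing the data. The genes and lists were chosen with earlier results of these data known.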

Additional observations from a re-analysis of the deposited data

Results flagged for a closer look

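Under the same treatment, the number of peaks at the 6 genes moved in opposite directions for the 2 antibodies. For EBF1 the difference, dTAG-13 minus DMSO, was -4 peaks (from 4 to 0), with the sites of Igll1, Cd79b, Vpreb2 and Vpreb3 no longer listed, while the whole list went from 312 to 5 peaks. For Brg1 it was 7 peaks (from 3 to 10), with more peaks at Igll1, Vpreb1 and Cd79b. Cd79a had 1 in each condition at the same place, Vpreb2 had 1 in each at places 9941 bp apart, and Vpreb3 had none. The whole Brg1 list went from 234 to 5206 peaks, in a library 3.54 times as deep after dTAG-13, and shortened to its 234 strongest peaks it held 0 at these genes. The difference between antibodies was not tested. There was 1 library for each antibody and condition, and the antibodies were used in different cell lines.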

How the results depend on the processing

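Of 70 alternative values for 13 counts, 50 stayed within 1.5 times the main value and 20 fell further below it. With a −log10 q of at least 10, EBF1 in DMSO had 2 peaks at 2 members (Igll1 and Cd79b), and Brg1 had 0 peaks at 0 members in DMSO and after dTAG-13. With −log10 q of at least 5, Brg1 after dTAG-13 had 6 peaks, and within 1 kb of a gene 5. Shortened to the 234 peaks of the DMSO list, the Brg1 dTAG-13 list held 0 member peaks at 0 members, so every overlap with it became 0. EBF1 sites with Brg1 after dTAG-13 numbered 1 under a reciprocal overlap of 50%, where Cd79b dropped out, and 0 with either −log10 q limit. Brg1 DMSO peaks found again numbered 1 (Cd79a) under the limit of 5 and 0 under that of 10. Requiring 10 in the DMSO list left 0 EBF1 sites with Brg1 in DMSO and 0 Brg1 dTAG-13 peaks found there. The count of 0 for EBF1 after dTAG-13 could not change under these settings, since that list has no peak on the chromosomes of the 6 genes. Counts within 20 kb could not change either, since the farthest member summit lay 9761 bp from its gene. The 50 values within 1.5 times the main value include both kinds. They also include DMSO counts that fell within 1 kb of a gene, from 4 to 3 EBF1 peaks and from 3 to 2 Brg1 peaks. No paired analysis was possible because each group has 1 library and no result comes from a test.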

Other observations

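The Brg1 peaks after dTAG-13 around Cd79b belonged to a longer row of sites. Over 29472 bp from the first summit to the last, chr11:106305984 to 106335456, 10 Brg1 summits were listed, of which 4 were assigned to Cd79b, 5 lay inside Scn4a (the sodium channel of skeletal muscle) and 1 lay 2281 bp from Gh (growth hormone). The highest was the one farthest into Scn4a, chr11:106334988-106335726, with 23 fragments and a fold enrichment of 7.63, above all 4 Cd79b peaks. Brg1 in DMSO had 0 summits in this span, and the nearest in that list lay 3628 bp from Icam2, an adhesion molecule, 77205 bp from Cd79b. The local backgrounds of the 10 ranged from 2.15 to 5.02 fragments per base, against a median of 3.09 in the list.

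No other window of 30 kb starting at a summit held as many of the 5206 summits, and the median window held 1. The width was chosen after the row had been seen. With 20 kb, Cd79b had 8 summits and no window had more, but 3 windows, that at Cd79b included, had at least as many. With 10, 50 and 100 kb, 7, 2 and 18 windows had more than the 5, 10 and 10 summits near Cd79b. At least as many were in 34, 5 and 32 windows, those at Cd79b included.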
